A study of Schizosaccharomyces pombe with 2 samples.

Results

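Small RNA reads were examined at 8 transcripts that control or carry out the entry of fission yeast into meiosis, out of the 9139 features listed in the deposited table besides coding exons. They were taken by name and not by a threshold on their reads, but with earlier results of these data known. The members were the regulators ste11, mei3 and mei2, the noncoding RNA gene sme2, and the targets mei4, ssm4, rec8 and spo5. Transcripts of these targets are known to be removed during growth through the RNA-binding protein Mmi1. The libraries held RNAs of 10 to 40 nt from exponentially growing Schizosaccharomyces pombe cells of strain YAM2394 (WT) and of strain YAM2397, which lacks exo2 (exo2Δ) and with it the cytoplasmic 5′–3′ exoribonuclease Exo2, the fission yeast form of Xrn1. By the genotypes in the study's methods, both are h+ strains with the ade6-M210, ura4-D18 and leu1-32 alleles, exo2 is replaced by kanMX4 in the mutant, and the medium was rich (YES), so that neither culture was set up for mating or meiosis. There was 1 library per strain. For this reason no value below has a replicate error, no test of the strains was possible, and all intervals cover counting error only. Reads were counted without molecular identifiers, which leaves amplification copies in them. Such copies make the intervals too narrow even for counting error.

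In fission yeast, nitrogen starvation induces Ste11, an HMG-box transcription factor that switches on mating and meiotic genes, mei2 among them. In diploid cells that hold both mating types Mei3 is made, which inhibits the Pat1 kinase and thereby releases Mei2, an RNA-binding protein that starts meiosis. During growth, Mmi1 binds transcripts that carry a determinant of selective removal, rich in the hexamer UUAAAC, and passes them to the nuclear exosome. In meiotic cells the sme2 transcript, meiRNA, forms a dot with Mei2 that sequesters Mmi1, and the targets persist.

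Mmi1 targets are recognised by sequence, so the hexamer was located in the RefSeq annotation of build ASM294v3. It was searched as TTAAAC, a motif that cannot overlap itself, on both strands of each annotated gene. On the sense strand, 51.8% of 5113 protein-coding genes held at least 1 copy, and the median was 0.256 copies per kb. The ssm4 gene held 6 copies, or 2.91 per kb, all of them in its coding sequence, and 0.528% of the other protein-coding genes had as many per kb. The corresponding numbers were 5 copies and 2.43 per kb for rec8, with 3 of the copies in coding exons, and 5 copies and 2.25 per kb for mei4, with 4 in the coding exon. As many per kb were found in 1.21% of the other genes for rec8 and in 1.49% for mei4. The spo5 gene held 3 copies (1.43 per kb), reached by 6.10% of the other genes. Among genes from 20% shorter to 25% longer than the gene in question, 0.128% held at least as many copies as ssm4, 0.514% as rec8, 0.526% as mei4 and 6.78% as spo5. The meiRNA annotation held 3 copies in 1562 nt. The regulators differed among themselves, with 4 copies in ste11, of which 1 was coding, 2 in mei3, none of them coding, and 0 in mei2. Per kb, ste11 held 0.994 copies, reached by 13.2% of the other genes. The mei3 gene held 1.57 per kb, reached by 4.54%, and was thus denser in copies than spo5. Among genes of like length, at least as many copies were held by 9.09% for ste11 and 11.5% for mei3. The antisense strand held 1 copy in mei4, 1 in ssm4, 2 in rec8, 2 in spo5 and 1 in sme2. For the regulators it held 2 copies in ste11, 0 in mei3 and 1 in mei2. A match is a description of the letters and does not show a binding site. The targets were taken as transcripts known to be removed through Mmi1, and the hexamer as the one Mmi1 binds. Their high ranks are therefore no independent result.

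The 30 bases around the pair of copies in mei4 and around the copy nearest the 5′ end in the others are shown for the 4 target mRNAs and meiRNA, to let their flanks be compared, with each copy of the hexamer in capitals. All are written 5′ to 3′ on the strand of the transcript, in ASM294v3.
mei4 (chrII:1473913-1473942, plus strand, coding exon): tagtTTAAACtcaaatattgTTAAACcccc
ssm4 (chrI:4536377-4536406, minus strand, coding exon): aaactaaagcaaTTAAACaaaaatcacgta
rec8 (chrII:2570246-2570275, plus strand, coding exon): ggtgaattaggtTTAAACataccttggaat
spo5 (chrII:2537522-2537551, plus strand, coding exon): tttccacattgtTTAAACccagcaaaatca
sme2 (chrII:339621-339650, minus strand, noncoding RNA): gatggggtccagTTAAACcaacccccaagt
The mei4 window is the one with 2 copies, which start at bases 850 and 866 from the 5′ end of the gene. The 6 copies of ssm4 are spread from base 343 to base 1933, whereas 4 of the 5 copies of rec8 start between bases 1806 and 1923 of 2056, near the 3′ end. In meiRNA all copies start at or after base 1270 of 1562.

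**Figure D1:**
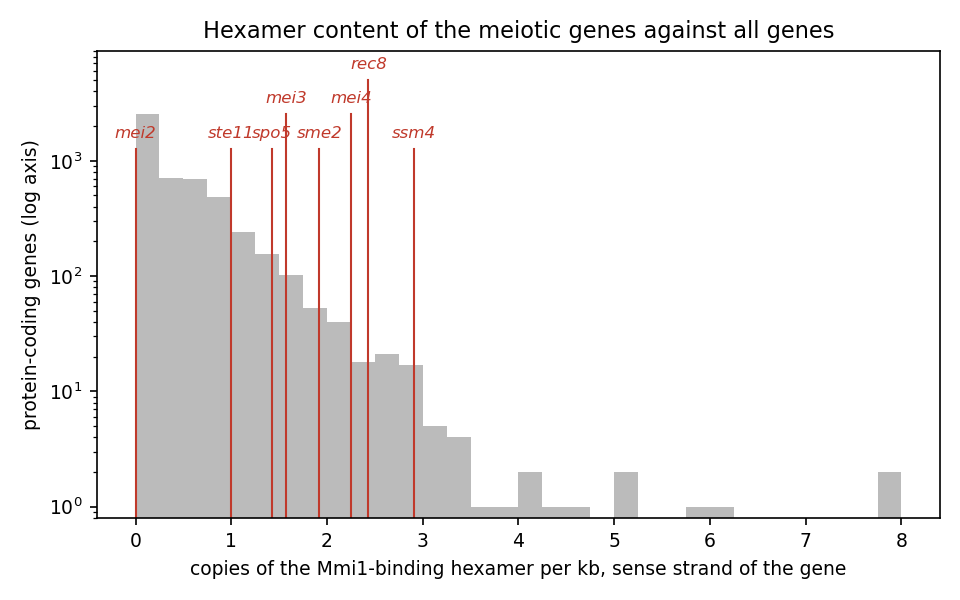
The histogram counts protein-coding genes (log axis) by the copies of the Mmi1-binding hexamer per kb on their sense strand in ASM294v3, and the red lines mark the 8 meiotic genes. Among these, ssm4 (2.91 per kb), rec8 (2.43) and mei4 (2.25) lie farthest to the right, and mei2 holds 0 copies.

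Reads were recovered from the deposited tag density. Multiplied by the feature length it gave a whole number in WT and a whole multiple of 0.998, the scaling of that library, in exo2Δ, in 100% of rows each. Summed over features, WT came to 13555082 reads and exo2Δ to 13678760, of which 1937624 and 1675011 lay in mRNAs. The coding exons of exo2 held 251 reads in WT and 26 in exo2Δ, so that the deleted gene was not empty. Those of ura4, deleted in both strains by genotype, held 1 read in each. The 7 coding members together held 266 reads in WT and 122 in exo2Δ. A median mRNA had 98 and 90 reads, or 48.5 and 45.1 reads per kb on the deposited scale.

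Most of the meiotic genes were low in small RNA reads beside mRNAs. By whole row, all 8 of them lay under the median mRNA density in both libraries. Of these, 5, namely mei3, mei4, ssm4, rec8 and spo5, were under percentile 10 of the mRNAs in each. The coding exon of ste11 lay at percentile 52.1 of mRNA coding densities in WT. Among annotated ncRNAs, sme2 was high, at percentile 88.8 in WT and 86.4 in exo2Δ. In exo2Δ, 5 members had fewer reads than in WT, 2 had more and mei3 had the same number. The mean over both libraries reached 10 reads, the minimum used below for counts of changed features, in 5 members: ste11, mei2, sme2, mei4 and ssm4. For such counts 1 read was added to both libraries before the ratio was formed, while the folds printed with an interval are without it. Of these 5, 2 had a ratio over 2 towards WT, ste11 and mei2, and 0 had such a ratio towards exo2Δ. Over all 5945 features past the same minimum, 6.91% had a ratio over 2 towards WT and 3.97% towards exo2Δ, together 10.9%. Over the 4749 mRNAs past it the shares were 5.05% and 2.4%, together 7.45%. For the 3673 mRNAs whose mean reached 50 reads, as it did for ste11 and mei2, they were 3.87% and 1.77%, together 5.64%.

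**Figure D2:**
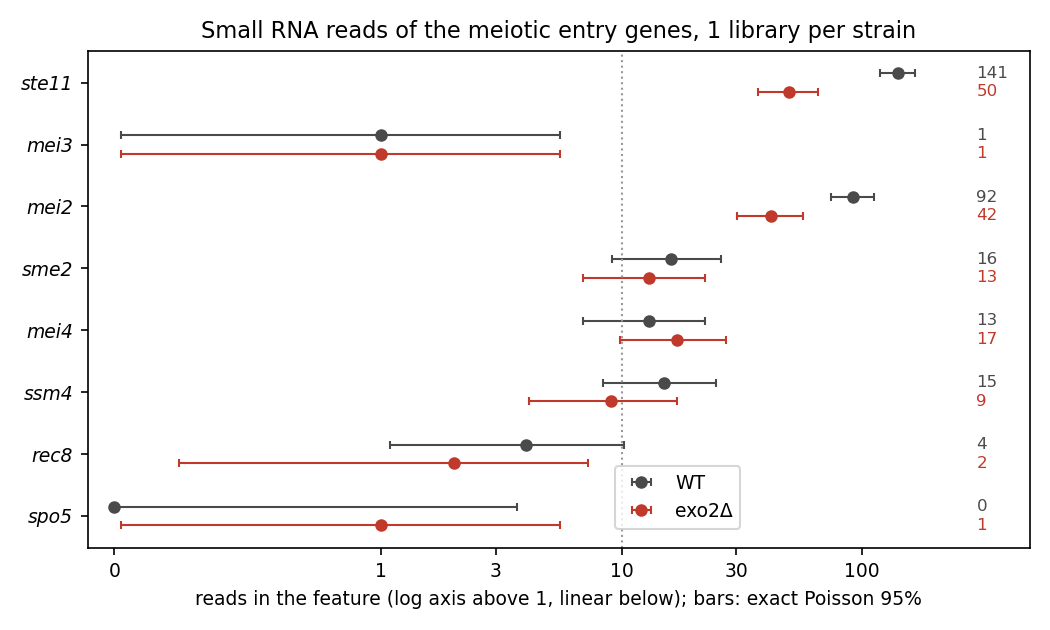
Points give the reads of each of the 8 meiotic genes in WT (grey) and exo2Δ (red), with exact Poisson 95% intervals, and the read numbers stand at the right. The axis is logarithmic above 1 read and linear below. The dotted line is at 10 reads. The intervals of the strains are apart for ste11 and mei2 and overlap for the other genes.

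The ste11 row (SPBC32C12.02, chromosome II, 3983312 to 3987400, plus strand, 4089 nt) held 141 reads in WT (95% interval 118.7 to 166) and 50 reads in exo2Δ (37.1 to 65.9). It had the most reads of the 8 in both libraries, and the intervals do not overlap. Its density was 2.83-fold lower in exo2Δ (95% interval of the fold 2.03 to 3.98), with a log2 ratio of -1.48 after adding 1 read to both libraries. That ratio lay at percentile 0.776 of the 3673 mRNAs whose mean reached 50 reads. In bulk samples, reads from fewer cells and fewer reads per cell cannot be told apart. The single coding exon of 1407 nt held 88 and 31 reads, and the remaining 2682 nt, most of them the 2274 nt before the coding sequence, held 53 and 19. The ratio of exo2Δ to WT was thus 0.352 in the coding exon and 0.358 outside it, so that the lower number was not limited to either part of the gene. Per kb, the coding exon held 62.5 reads in WT against 19.8 outside. The coding density of ste11 in WT lay at percentile 52.1 of mRNA coding densities, whereas the whole row lay at percentile 36.2. The neighbouring mRNAs had ratios closer to 1 or above it. On one side cyc3 had 165 and 136 reads (ratio 0.82, 0.65 to 1.04), and on the other side ppk25 had 86 and 140 (1.62, 1.23 to 2.15).

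The mei3 row (SPBC119.04, chromosome II, 719585 to 720990, plus strand, 1406 nt) held 1 read in WT, inside the coding exon, and 1 read in exo2Δ, outside it. Both libraries were therefore at or under the floor of 3 reads, and no fold is given. Reads could be detected at this depth in the genes beside it, since cmt1 had 82 and 70 reads and lsb1 had 136 and 137. A pair of annotated ncRNAs that overlap mei3 on its own strand, SPNCRNA.324 and SPNCRNA.325, held 0 reads each in WT and 1 and 0 reads in exo2Δ.

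The mei2 row (SPAC27D7.03c, chromosome I, 4510983 to 4515015, minus strand, 4033 nt) held 92 reads in WT (74.2 to 113) and 42 reads in exo2Δ (30.3 to 56.8). These intervals are apart as well. The density was 2.20-fold lower in exo2Δ (1.51 to 3.24), with a log2 ratio of -1.12, at percentile 2.63 of the mRNAs whose mean reached 50 reads. The coding exon of 2253 nt held 61 and 31 reads, and the 1780 nt outside it held 31 and 11, so that both parts were lower in exo2Δ. The call of a ratio over 2 was lost in the coding exon alone, with a log2 ratio of -0.96, and when the libraries were scaled on the median ratio of mRNAs, also with -0.96. Percentiles of the whole-row density among mRNAs were 22.5 in WT and 11.6 in exo2Δ.

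A XUT covers the 5′ part of mei2 on its own strand. XUTs are long noncoding transcripts that were more abundant in total RNA without Exo2. XUT0723 (chromosome I, 4513793 to 4515019) shares 1223 of its 1227 nt with the mei2 row. It held 20 small RNA reads in WT and 8 in exo2Δ, with a ratio of 0.399 (0.15 to 0.95). Reads of the shared stretch cannot be assigned to one or the other, and how they were counted is not given in the sources used here. The mRNAs on either side of mei2 had 129 and 97 reads (grp1) and 57 and 66 reads (omt2).

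The sme2 row (SPNCRNA.103, chromosome II, 339346 to 340012, minus strand) covers 667 nt. In the RefSeq annotation meiRNA ends at the same 3′ position but spans 1562 nt, and the short form sme2-S, of 509 nt, shares 0 positions with the deposited row. The reads therefore belong to the 3′ part of the long form, which holds all 3 hexamers, and the short form was not measured. The row held 16 reads in WT (9.15 to 26.0) and 13 reads in exo2Δ (6.92 to 22.2), with strongly overlapping intervals. The ratio was 0.81 (0.36 to 1.80), so that no difference was detectable at this depth. Per kb, sme2 held 24.0 reads in WT and 19.4 in exo2Δ, close to mei2 in WT (22.8). Among the 1522 annotated ncRNAs this lay at percentile 88.8 in WT and 86.4 in exo2Δ, and against mRNAs at percentiles 23.9 and 21.3.

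Among the 4 target genes, the most reads in exo2Δ were at mei4 (SPBC32H8.11, chromosome II, 1473125 to 1475285, plus strand, 2161 nt), which encodes a forkhead transcription factor for the genes of the meiotic divisions and spore formation. It held 13 reads in WT (6.92 to 22.2) and 17 in exo2Δ (9.90 to 27.2). The ratio of 1.30 had an interval from 0.60 to 2.92, which includes no change. The coding exon held 10 and 12 of these reads. The first 58 nt of the row overlap the end of cdk9 on the same strand, with 178 and 154 reads, and 38 nt overlap XUT1060, with 3 and 3 reads, so that reads at this end are shared. The gene on the other side is act1, the actin gene, with 5424 and 3961 reads on the opposite strand. The low number of mei4 thus stood beside one of the higher read numbers given here.

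The ssm4 gene (SPAC27D7.13c, chromosome I, 4534674 to 4536686, minus strand), which encodes a dynactin subunit for the nuclear movements of meiotic prophase, has a row of 2013 nt that holds the coding sequence alone. It held 15 reads in WT (8.40 to 24.7) and 9 in exo2Δ (4.12 to 17.1), with a ratio of 0.60 (0.23 to 1.46). The strains overlapped, and no difference was detectable. Its hexamer content was the highest of the 8, and its density, 7.45 and 4.46 reads per kb, lay at percentiles 7.67 and 5.995 of the mRNAs.

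The remaining targets were near the floor. The rec8 gene (SPBC29A10.14, chromosome II, 2568893 to 2570993, plus strand), which encodes the kleisin subunit of meiotic cohesin, held 4 reads in WT and 2 in exo2Δ. Of its 5 coding exons, exon 4, the longest with 1250 nt, held 2 reads in each library and the other exons held 0. The spo5 gene (SPBC29A10.02, chromosome II, 2536164 to 2538254, plus strand), which encodes an RNA-binding protein for meiotic progression and spore formation, held 0 reads in WT. The floor taken for a count of 0, 3 reads, is 1.43 reads per kb here, and the upper end of the 2-sided Poisson interval is 3.69 reads. In exo2Δ it held 1 read, outside its 3 coding exons. It was among 132 of 5129 mRNAs with 0 reads in WT, and no fold is given for it or for rec8 because both libraries are too close to the floor.

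Summed, mei4, ssm4, rec8 and spo5 held 32 reads in WT (21.9 to 45.2) and 29 in exo2Δ (19.4 to 41.6), a ratio of 0.90 (0.53 to 1.54). The regulators ste11, mei3 and mei2 held 234 and 93 reads, a ratio of 0.40 (0.31 to 0.51). The second sum rests on ste11 and mei2, since mei3 added 1 read in each library. In the first sum mei4 had more reads in exo2Δ (13 and 17) and ssm4 fewer (15 and 9). Genes are not replicates, so these sums only describe reads and do not compare regulators with targets. Per kb the targets held 3.83 and 3.46 reads and the regulators 24.6 and 9.74. The regulators made up 83.0% of the reads of the 8 members in WT and 68.9% in exo2Δ. Without ste11 and mei2, the other 6 members held 49 and 43 reads, with a ratio of 0.88 (0.57 to 1.35). Those left out were the members with a ratio over 2. A remainder nearer to 1 was therefore set by that choice and is no result about the other members. The median log2 ratio of all mRNAs past the minimum was -0.15.

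**Figure D3:**
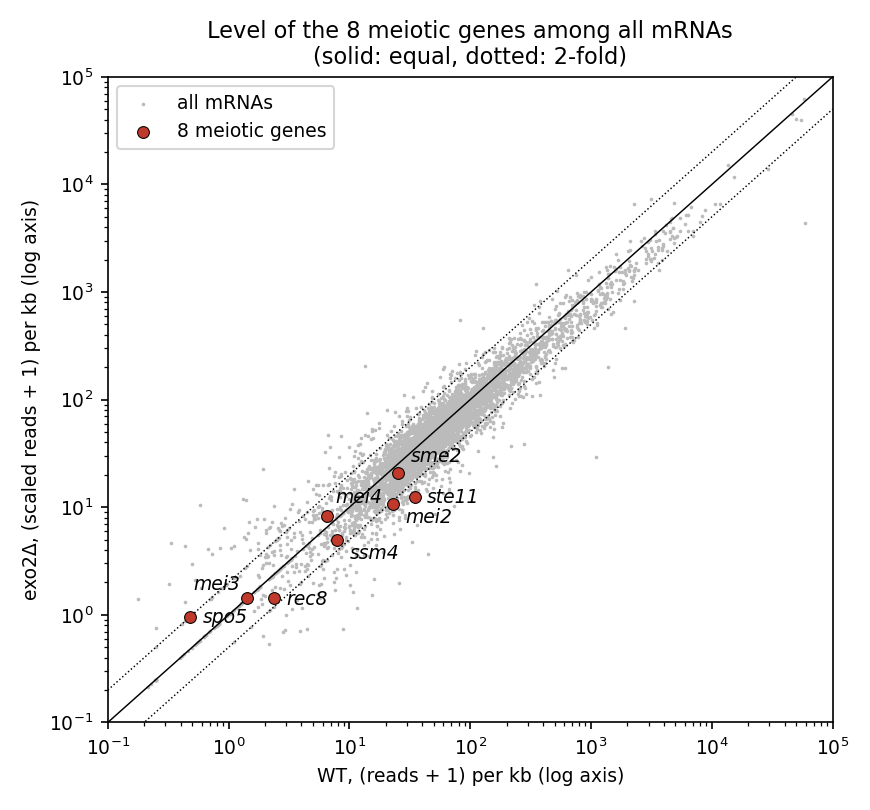
Each grey point is an mRNA and each red point a meiotic gene, by reads per kb after adding 1 read, in WT (x, log axis) and exo2Δ (y, log axis). The solid line marks equal values and the dotted lines 2-fold. The 8 genes lie in the lower part of the cloud, with ste11 and mei2 below the lower dotted line and rec8, spo5 and mei3 at the bottom, where the points hold 0 to 4 reads.

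**Figure D4:**
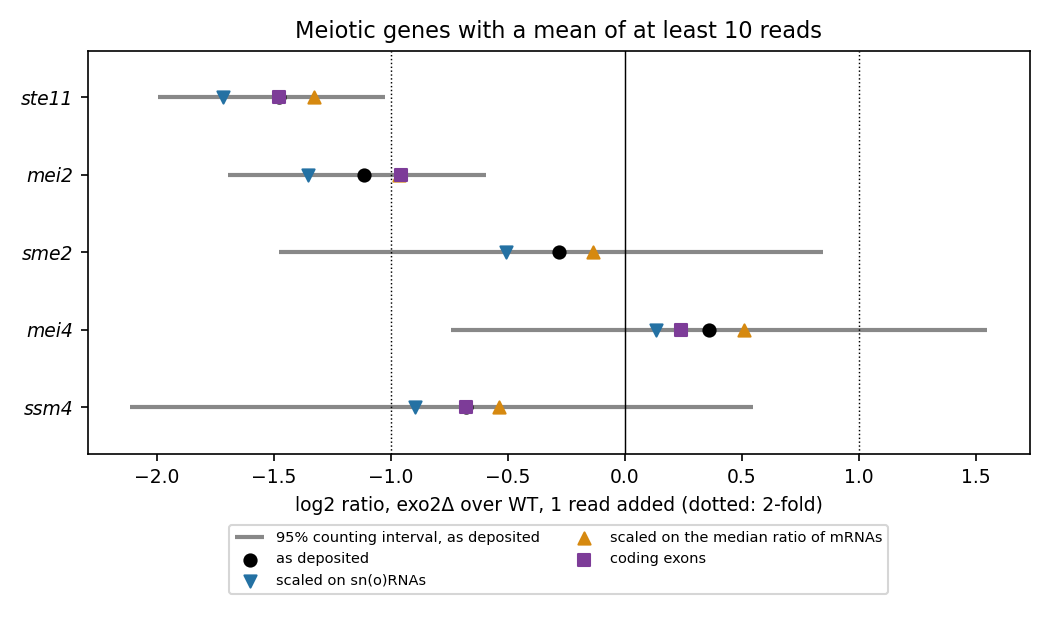
Log2 ratios of exo2Δ over WT for the 5 genes with a mean of at least 10 reads, as deposited (circles), under other scalings (triangles) and in coding exons alone (squares). Grey lines are exact binomial 95% intervals of the reads. The lines of ste11 and mei2 end below 0, while those of sme2, mei4 and ssm4 include it, and mei2 crosses the dotted 2-fold line under 1 of the scalings and in coding exons.

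The libraries were made to ask whether XUTs antisense to mRNAs give small RNAs. The paper reported that small RNA tags were not enriched in antisense XUTs. It also reported that reads over the paired mRNAs lacked the size typical of Dicer products. Read sizes cannot be seen in the tag densities used here, nor whether these hold only the narrower class that the paper filtered. None of the 8 members had an antisense XUT in the table: 0 of the 1638 XUTs overlapped them on the opposite strand, even by 1 nt. The nearest opposite-strand XUTs were XUT0332, 56 nt from rec8, with 6 reads in WT and 3 in exo2Δ, and XUT1561, 167 nt from ssm4, with 8 and 28 reads. The only opposite-strand feature of any kind was pcf1 (SPBC29A10.03c), whose 3′ end overlaps that of spo5 by 127 nt. Its row gave 97 reads in WT and 74 in exo2Δ, a ratio of 0.76 (0.55 to 1.04), while spo5 had 0 and 1. The other overlaps were on the same strand, 5 in all, with XUT0723, XUT1060, cdk9 and the ncRNAs at mei3.

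With 2 libraries, the pattern of a gene is its pair of densities. The mRNA nearest to ste11 in both log2 densities was alg10 (SPAC56F8.06c, 64 and 24 reads), at a distance of 0.12 log2 units when 1 read is added to each. That of mei2 was pgs1 (SPBP18G5.02), with 39 and 18 reads at 0.028. The nearest to sme2 was rrp42 (55 and 46 reads), to mei4 sor1 (14 and 18), and to ssm4 SPCC70.04c (15 and 9). Near the floor, rec8 was closest to spn6 (3 and 2 reads), spo5 to wtf9 (0 and 1) and mei3 to SPBC1348.09 (0 and 0).

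The wider pathway was described with 8 lists, 100 genes in all, of which 68 had a mean of at least 10 reads. Of these 68, 1 had a ratio over 2 towards exo2Δ after adding 1 read and 3 towards WT, or 1.47% and 4.41%, beside 2.4% and 5.05% of all mRNAs past the minimum. Their median log2 ratio was -0.29, beside -0.15 for those mRNAs.

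By their median density in WT, the lists of the Mmi1 machinery and of the upstream switches lay above the middle of the mRNAs, and the cohesin list below it. The 10 genes of the Mmi1 elimination machinery all passed the minimum, with 0 over 2-fold in either direction and a median log2 ratio of -0.35. Their median density lay at percentile 62.1 of the mRNAs in WT. The gene with the most reads was mmi1 itself, which encodes the reader of the hexamer, with 361 reads in WT and 271 in exo2Δ (ratio 0.75, 0.64 to 0.88). The 17 switches upstream of ste11 and mei2, kinases, G proteins and transcription factors of the nutrient and pheromone pathways, also all passed, with 0 over 2-fold, a median log2 ratio of -0.30 and a median percentile of 57.2. Here tor2, a kinase that promotes growth and holds back sexual differentiation, led with 616 and 595 reads. The gene of the Pat1 kinase, which holds Mei2 inactive, was named for this role and after its values were seen, with 66 and 52 reads. Of the 13 genes for cohesin subunits, loaders and guards 12 passed, with a median log2 ratio of -0.32 and a median percentile of 35.6, and cut1, the separase gene, led with 210 and 170 reads. The single gene of this list over 2-fold, named after its values were seen, was sgo1, which encodes the meiotic protector of centromeric cohesin, with 17 and 7 reads and an interval of the ratio, 0.14 to 1.04, that includes 1.

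The lists of mating and recombination genes were low. Of the 15 genes for meiotic recombination and the chromosome axis, 2 passed the minimum. The median of the list was 5 reads in WT and 3 in exo2Δ, and its density lay at percentile 4.65 of the mRNAs in WT, between rec8 (3.97) and mei4 (6.70). The exception was rec14, with 76 and 68 reads. Of the 16 pheromone and mating genes under Ste11, 11 passed, with 9 log2 ratios below 0 and 2 above, a median of -0.46 and a median percentile of 8.25 in WT. The gene mam3, for a cell-surface agglutinin of mating cells, was over 2-fold lower in exo2Δ, at 43 and 13 reads (3.31-fold, 1.75 to 6.72). It is overlapped on the same strand by XUT0552, with 6 and 2 reads. The gene with the most reads over both libraries was mam1, the transporter gene for M-factor, with 69 and 81 reads.

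Of the 7 other transcripts listed as removed through Mmi1, 3 passed the minimum, and their ratios went in both directions. For mcp7, whose product takes part in meiotic recombination, WT gave 46 reads and exo2Δ 109, 2.36-fold more (1.66 to 3.41). Its coding exons held 25 and 35 of them and the rest of the row 21 and 74, so that most of the added reads lay outside the coding exons. It overlaps ubp8 on the other strand by 596 nt, and ubp8 had 52 and 48 reads. The mug8 gene had 28 and 9 reads, 3.12-fold lower (1.43 to 7.51). The cortical dynein anchor gene mcp5, named after its values were seen, had 17 and 32 (ratio 1.88, 1.01 to 3.61). On the other strand SPNCRNA.1397 covers all 3294 nt of mcp5, with 14 and 33 reads. There SPNCRNA.566 also overlaps mcp5, by 555 nt, with 0 and 3 reads. Past the minimum the median of the list was 0.87, whereas without a minimum it was -0.59.

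The horsetail and bouquet list had 5 of 9 genes past the minimum, with 0 over 2-fold and a median of -0.22. Its gene with the most reads was dhc1, the dynein heavy chain gene whose product acts with Ssm4, with 146 and 97 reads, and its density lay at percentile 10.6 in WT. Of the 13 genes for the meiotic divisions and spore formation 8 passed, with a median of -0.073, or 0.081 on the median ratio of mRNAs. After adding 1 read, 0 of them were over 2-fold, but isp3, a spore wall gene, was at the limit, with 17 and 35 reads (ratio 2.05, 1.12 to 3.91, log2 0.997 with 1 read added). An ncRNA and XUT0454 overlap isp3 on the other strand. The median density of this list lay at percentile 17.7 in WT and 31.0 in exo2Δ. Both are the values of mes1, with 24 and 34 reads and a ratio of 1.41 (0.81 to 2.49). The higher percentile thus rests on a single gene whose interval includes 1. Of the 8 genes past the minimum, 4 had a log2 ratio above 0 and 4 below. The list was not uniformly low, since spo20 (82.0), spo2 (80.2), spo14 (71.9) and spo15 (67.4) were above the middle of the mRNAs in WT, as was dlc1 (80.8) of the horsetail list. The most reads were at spo15, a spindle pole body gene, with 477 and 389.

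**Figure D5:**
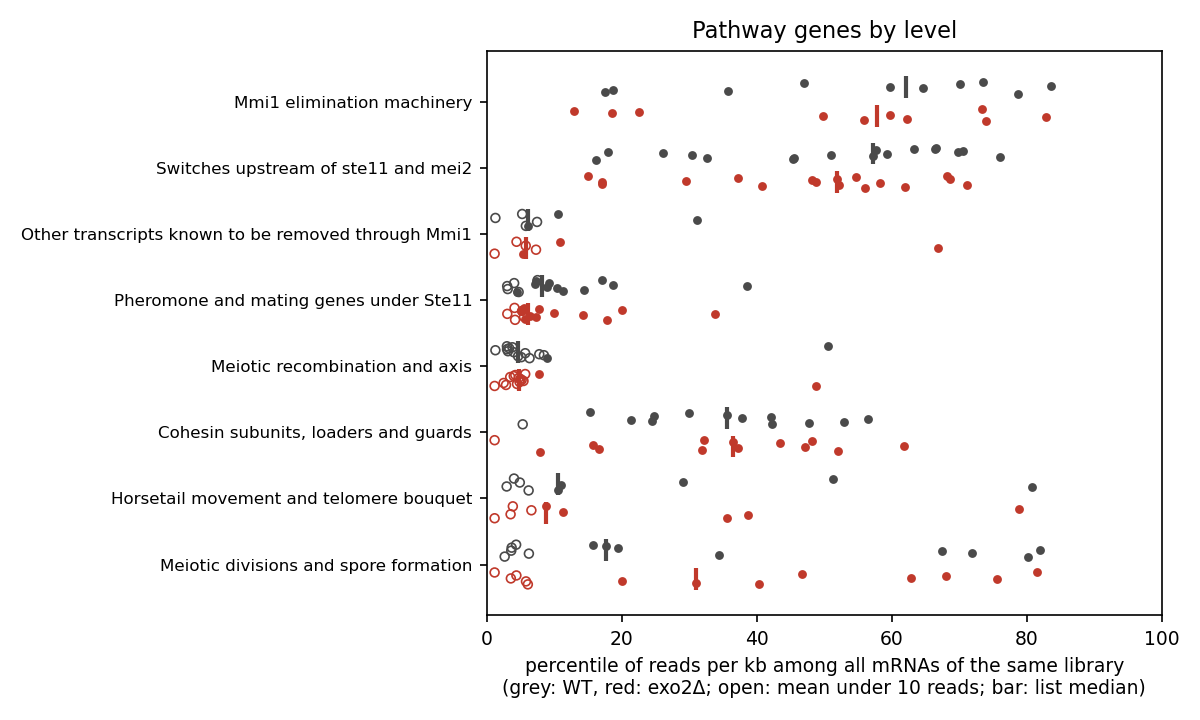
Each point is a gene of the 8 pathway lists, placed by the percentile of its reads per kb among all mRNAs of its library, WT in grey and exo2Δ in red. Open points have a mean under 10 reads and bars mark list medians. The Mmi1 machinery (median percentile 62.1 in WT) and the upstream switches (57.2) lie to the right of the recombination genes (4.65) and the pheromone and mating genes (8.25).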

How the data were processed

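Tag densities of 2 small RNA libraries (10 to 40 nt), 1 per strain, were used. The authors trimmed adapters with cutadapt, kept reads that Bowtie 0.12.8 placed once, with up to 3 mismatches, on ASM294v2 per the labels, and deposited a signal, the tags per nt of each feature. How overlapping features were counted is not given in the sources used here. Of 19343 rows, 10204 are coding exons, counted apart. The density times the length was whole, within 0.001 of a read, in WT, and a whole multiple of 0.998 in exo2Δ, which was kept as the scaling. Log2 ratios have 1 read added. A feature was counted over 2-fold if its ratio, with 1 read added to both libraries, was over 2 and the mean of both libraries reached 10 reads. A test across strains needs replicates and was not run. Intervals on ratios are exact binomial and on reads exact Poisson, at 95%. Percentiles count ties at their midpoint.

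Of 10190 coding exons of the nuclear chromosomes, 98.3% had unchanged coordinates in RefSeq ASM294v3, all 13 of the members among them, which gave symbols and hexamer sequences at its own coordinates. All value columns belonged to these libraries. The members and lists were chosen with earlier results of these data known, the lists from general knowledge of the pathway. Named genes were the members, their opposite-strand features, the nearest mRNA of each, and in each list up to 4 genes over 2-fold with an interval apart from 1 and the gene with the most reads. Flanking mRNAs, same-strand features, pat1, sgo1, mcp5, dlc1 and the spore genes above the mRNA median were added after values were seen. Read recovery, intervals and calls were tested on simulated data (Python 3.11.15, scipy 1.17.1, pandas 2.3.3).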

Additional observations from a re-analysis of the deposited data

How the results depend on the processing

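No paired analysis was possible because there was 1 library of each strain. Over the alternatives, log2 ratios ranged from -1.72 to -1.33 for ste11, -1.35 to -0.96 for mei2, -0.90 to -0.52 for ssm4, -0.51 to -0.14 for sme2 and 0.13 to 0.51 for mei4. With so few reads the ratios of rec8 (-0.97 to -0.0020), mei3 (-1 to 0.078) and spo5 (0 to 3.46) are not fixed, and their counting intervals are too wide to show stability. The number of members over 2-fold lower, 2, became 1 on the median ratio of mRNAs and in coding exons (ste11 alone) and 0 with a ratio over 4. At a minimum overlap of 200 nt, 0 opposite-strand features were left, since pcf1 overlaps spo5 by 127 nt. Features over 2-fold higher and lower, 236 and 411, became 620 and 957 without a minimum, 149 and 736 scaled on sn(o)RNAs, 99 and 182 once the mean had to reach 50 reads and 42 and 50 with a ratio over 4. For mRNAs, 114 and 240 became 73 and 501 on sn(o)RNAs, 65 and 142 at 50 reads and 11 and 21 with a ratio over 4, and those lower became 146 on the median ratio of mRNAs. For the pathway genes, 1 and 3 became 5 and 9 without a minimum, 0 and 5 scaled on sn(o)RNAs, and 0 and 0 with a ratio over 4; those higher became 3 on the median ratio of mRNAs and 2 with 0.1 read added (mcp7 and isp3), and those lower 0 at 50 reads. The median of the other Mmi1 transcripts, 0.87, was -0.59 without a minimum, where genes with few reads enter. The scaling factor of exo2Δ was 0.998 as deposited, 0.843 on sn(o)RNAs and 1.11 on mRNAs, which moves all ratios nearly alike. Other causes were not tested. Depth limits mei3, rec8 and spo5, with 0 to 4 reads, to a statement of their low level.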
